A study of Rattus norvegicus with 9 samples.

Results

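The genes described here, 9 in all, encode proteins of the ribbon synapse of hair cells (HCs): Otof, Slc17a8, Cacna1d, Cacnb2, Cabp2, Ctbp2, Bsn, Pclo and Rims2. They were listed for their known place at this synapse and found by symbol, ignoring case, in the count table, which holds 32883 genes. All 9 were in the table, and all 9 were among the 15517 genes with enough counts to be tested.

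Male Long-Evans rats drank water with 20 mM 3,3′-iminodipropionitrile (IDPN), a nitrile that is toxic to vestibular HCs, over a period of 3 weeks (IDPN-3wk) or 7 weeks (IDPN-7wk), while control rats of the same sex and strain had plain water. Each group had 3 libraries, and each library was made from the utricles and cristae of a single rat with SMARTseq2, which copies polyadenylated RNA into cDNA and amplifies it by PCR. The controls, which per the study's methods came from both time points of tissue collection, were the same libraries in both comparisons, so the fold changes at 3 and 7 weeks share them. The samples are bulk tissue: fewer cells of a type and less RNA per cell cannot be told apart.

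Library totals were 38023198, 32251682 and 38044824 counts in Control replicates 1, 2 and 3. For IDPN-3wk they amounted to 37640956, 31100118 and 32696268, and for IDPN-7wk to 46007687, 46018385 and 37275081, in the order of the replicates. Levels are library-scaled counts (CPM, with TMM factors), and 3 counts corresponded to 0.0611 to 0.101 CPM. The PCR reads carry no molecular identifiers, so such a floor covers counting error only. Levels were not divided by transcript length, so the gene named beside a summed level is the one with the highest CPM, not the one with the most molecules. Libraries of the same group differed from one another in their counts: the chi-square per gene between replicates was at least 19.4.

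The libraries formed sets that did not follow the groups. At the depth of the smallest library, 15464 genes were expected to be detected in Control replicate 3, 15498 in IDPN-3wk replicate 1 and 15387 in IDPN-3wk replicate 2, against 16834 to 17312 in the other libraries. This split was made after the data were seen, and where leaving these 3 libraries out changes the call of a gene described below, the value without them is given. Without them IDPN-3wk replicate 3 is the only library of its group, so comparisons with IDPN-3wk are then given as effect sizes. Differences within a set at 3 weeks also have a single library in a group. It is Control replicate 3 in the fewer-detected set and IDPN-3wk replicate 3 in the other set. Mitochondrial genes held 4.43% to 5.48% of counts in the control and IDPN-3wk libraries and 2.85% to 3.93% in the IDPN-7wk libraries, and the part of this difference in the results was not tested.

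HCs of the vestibular epithelia turn the deflection of their hair bundle into a graded release of glutamate onto afferent nerve endings. At each release site an electron-dense ribbon holds synaptic vesicles beside the active zone, where voltage-gated calcium channels open as the cell depolarises and the incoming calcium triggers vesicle fusion. Otoferlin, a calcium-binding protein of the vesicles, takes the place at this synapse that synaptotagmins have in neurons.

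The HC label was checked with a list of 18 HC markers, of which 17 were in the table and all 17 were tested (Ocm was not found by symbol). Myo7a, the unconventional myosin widely used to mark HCs, was at 166, 193 and 174 CPM in controls, 146, 141 and 122 CPM in IDPN-3wk, and 160, 134 and 132 in the libraries of IDPN-7wk, so HC transcripts were present in every library. The HC marker sum, in which Spp1 had the highest CPM, was 7568, 7518 and 8002 CPM in controls, 4642, 4618 and 3888 CPM in IDPN-3wk, and 2687, 2881 and 2862 in the libraries of IDPN-7wk. By subtype, the mean sum in controls, IDPN-3wk and IDPN-7wk was 5618, 3168 and 1644 CPM for type I markers (highest CPM Spp1), 1692, 879 and 757 CPM for shared markers (highest CPM Ptprq, with means of 958, 310 and 341 CPM), and 386, 335 and 409 CPM for type II markers (highest CPM Anxa4, with 339, 310 and 377 CPM). The median log2 fold changes at 3 and 7 weeks were -1.21 and -1.58 for type I, -0.43 and -1.30 for shared and -0.59 and -0.31 for type II markers. Of the 4 type II markers, 4 were lower at 3 weeks, and 2 were lower and 2 higher at 7 weeks. Beside Anxa4 these were Calb2, with means of 19.1, 6.39 and 7.15 CPM in controls, IDPN-3wk and IDPN-7wk, Sox2 and Mapt. Sox2 had 12.2, 7.14 and 7.10 CPM, and Mapt had 15.9, 11.9 and 18.2 CPM. A gene was called a DEG when edgeR's quasi-likelihood test gave a Benjamini-Hochberg adjusted p under 0.05 over all genes tested and the fold change was above 1.5. By this rule 7 of 17 HC markers were downregulated at 3 weeks and 11 of 17 at 7 weeks, with medians of -0.77 and -1.30 on the log2 scale, while 1.21% and 3.13% of all genes tested were downregulated. The 3-week calls of Lhx3, Calb2 and Tmc1 were lost without Control replicate 2 (adjusted p = 0.0963, 0.120 and 0.0515). That of Lhx3 was also lost without any other single library (up to 0.110). That of Calb2 was also lost without any other control or IDPN-3wk library or IDPN-7wk replicate 3 (up to 0.115). In all of these the log2 fold change of Calb2 lay between -1.61 and -1.54. It was -1.54 without the 3 libraries with fewer detected genes, where IDPN-3wk replicate 3 stands alone. Of the 7-week calls, Cdh23 was lost without Control replicate 2 or 3 or any IDPN-7wk library (up to 0.145), Calb2 without any control or IDPN-7wk replicate 3 (up to 0.0917) and Lhfpl5 without IDPN-7wk replicate 1 or 2 (up to 0.0565); these markers were picked out with their values known. Myo7a was not called, with a log2 fold change of -0.39 at 3 weeks (adjusted p = 0.128) and -0.33 at 7 weeks (adjusted p = 0.138), although the 3 exposed libraries lay below the 3 controls at both times. Pou4f3, a transcription factor of HCs, was, at 3 weeks, no DEG either (-0.35 on the log2 scale, adjusted p = 0.232) and fell by 0.62 on the log2 scale at 7 weeks (adjusted p = 0.0209). That call was lost without Control replicate 2 (adjusted p = 0.0702), Control replicate 3 (0.0717), IDPN-7wk replicate 2 (0.0806) or IDPN-7wk replicate 3 (0.0863). Without the 3 libraries with fewer detected genes, and with a covariate for that set, the Pou4f3 decrease of 0.55 was too small for the fold change threshold. No marker of the list was at 0 in a group. HC markers and ribbon synapse genes thus shifted in the same libraries, and the part of HC number in the values that follow was not tested.

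Among the 9 ribbon synapse genes, 2 were DEGs after 3 weeks, Otof and Cacna1d, and 4 after 7 weeks, Otof, Cacna1d, Slc17a8 and Cabp2, and every one of these calls was a decrease. Of all genes tested, 1.65% were DEGs at 3 weeks and 5.13% at 7 weeks, and those lower made up 1.21% and 3.13%. The fold change was below 0 for 9 of 9 genes at 3 weeks and for 8 of 9 at 7 weeks, the exception being Ctbp2, with medians of -0.44 and -0.96 on the log2 scale against 0.00 and 0.01 over all genes tested. The exposed and control libraries did not overlap, with the exposed ones lower, for 4 of 9 genes at 3 weeks (10.9% of all genes tested) and for the same number at 7 weeks (17.1% of all genes tested), which were Otof, Slc17a8, Cacna1d and Cabp2 each time. The summed level of the 9 genes was 1174 ± 127 CPM in controls, 649 ± 92.6 CPM in IDPN-3wk, and 620 ± 36.6 in the libraries of IDPN-7wk (mean ± SD, n = 3), and Otof had the highest CPM of them. Their direct comparison between the exposed groups gave 0 DEGs with edgeR, where 0.483% of all genes tested were called; 2 of the 9 genes had an unadjusted p under 0.05, and DESeq2 called 0 as well.

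**Figure D1:**
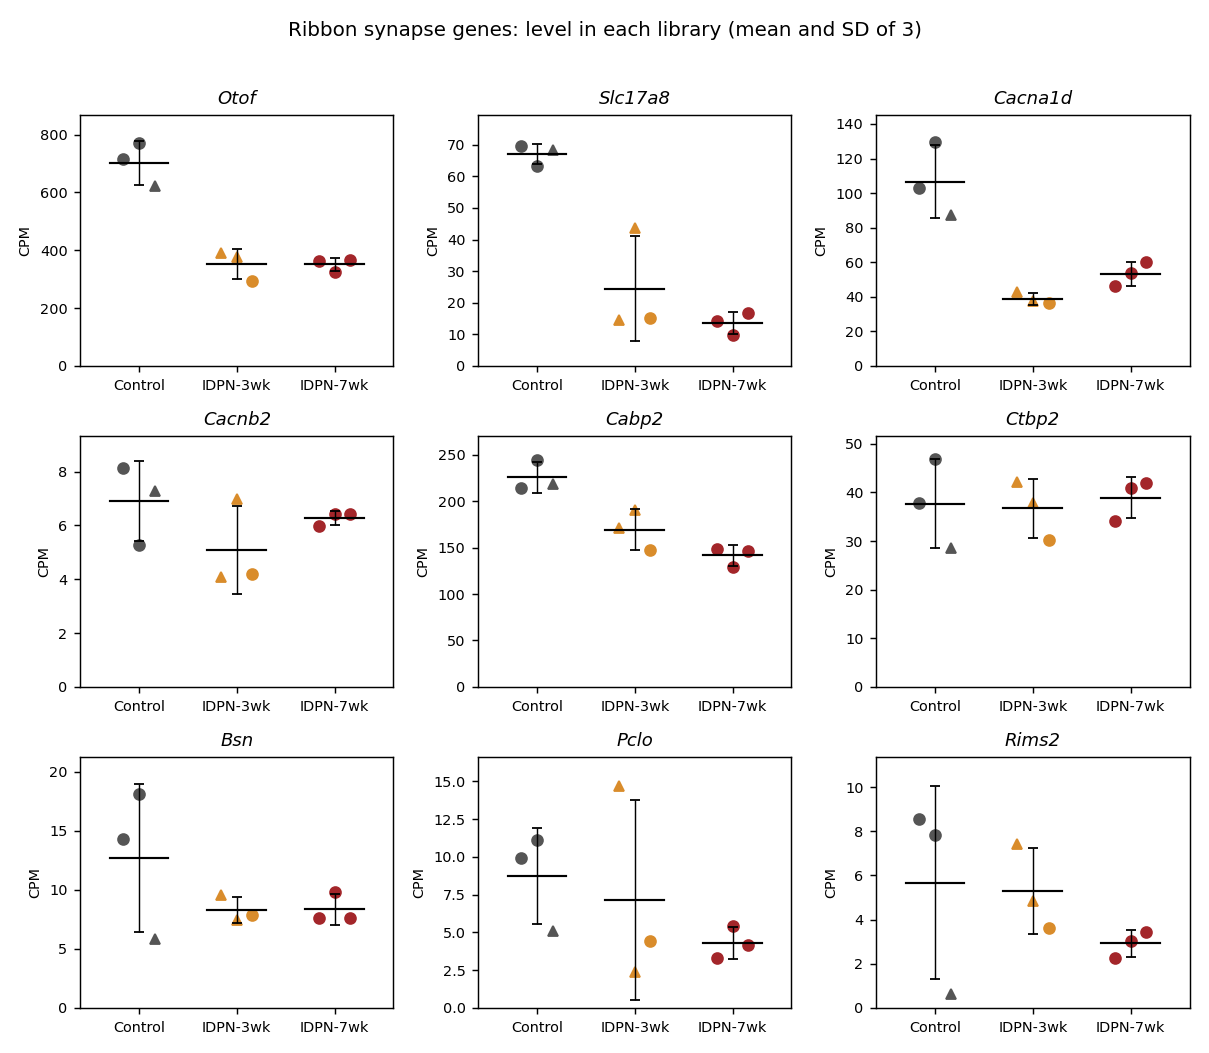
Level of each of the 9 ribbon synapse genes in every library, in CPM, with 1 point per library (triangles mark the 3 libraries with fewer detected genes), a line at the group mean and bars for the SD of 3. Otof, Slc17a8, Cacna1d and Cabp2 lie lower in all IDPN libraries than in the controls, while for the others the IDPN libraries overlap the controls.

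The stretches upstream of the start site of the 4 genes downregulated at 7 weeks are shown because these genes were lower in the same libraries. They are the 150 bases before the start in the RefSeq promoter windows of rat build GRCr8, written 5′ to 3′ on the strand of the gene, with CG pairs in capitals. The windows lie on chr6:31647764-31647913 (plus strand) for Otof, chr7:25935411-25935560 (minus strand) for Slc17a8, chr16:5527550-5527699 (minus strand) for Cacna1d and chr1:210803961-210804110 (plus strand) for Cabp2, which has a second window.
Otof: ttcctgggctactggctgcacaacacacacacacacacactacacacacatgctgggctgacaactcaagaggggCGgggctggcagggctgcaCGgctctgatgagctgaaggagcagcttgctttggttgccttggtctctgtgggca
Slc17a8: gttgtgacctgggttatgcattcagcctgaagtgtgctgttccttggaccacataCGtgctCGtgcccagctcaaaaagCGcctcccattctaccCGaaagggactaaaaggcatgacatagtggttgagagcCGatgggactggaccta
Cacna1d: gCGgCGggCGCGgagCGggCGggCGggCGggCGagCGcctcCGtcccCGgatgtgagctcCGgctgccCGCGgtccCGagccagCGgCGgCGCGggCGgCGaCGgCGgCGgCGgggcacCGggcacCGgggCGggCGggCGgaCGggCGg
Cabp2: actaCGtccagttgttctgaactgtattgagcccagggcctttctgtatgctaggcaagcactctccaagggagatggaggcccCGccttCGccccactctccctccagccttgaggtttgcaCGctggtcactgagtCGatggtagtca
The stretch of Cacna1d holds 33 CG pairs, against 2 in Otof, 5 in Slc17a8 and 5 in Cabp2.

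These 4 genes did not share a base composition. Over the whole window of 300 bases, 250 before and 50 after the start, Cacna1d had 88.7% G and C and a ratio of observed to expected CG pairs of 1.18, Otof 58.0% and 0.202, Slc17a8 51.3% and 0.456, and the Cabp2 windows 50.7% and 0.314, and 59.3% and 0.155. The medians over all 33469 windows were 51.7% and 0.392. Base composition was added after the values were seen. The active zone genes Bsn (73.0%, ratio 1.00) and Pclo (67.7%, ratio 0.917) were CG-rich like Cacna1d, Cacnb2 had 1 window of each kind (71.7%, 1.00, and 48.7%, 0.346), Ctbp2 had 53.0% and 0.381, and of the 9 genes 8 matched the RefSeq table, without Rims2. The letters CAGCTG (an E-box), TAATTA (a homeodomain core) and AAATCA (a GFI-type core) were searched on both strands; they occur in 15.1%, 5.36% and 14.5% of all windows. CAGCTG was found in the Bsn window, 9 bases after the start, and AAATCA in the second Cacnb2 window, at position -73, before the start. None of these letters was in the windows of the 4 genes shown. A match is a description of these letters only.

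Otof (ENSRNOG00000009967), which encodes the calcium sensor of vesicle fusion in HCs, was at 715, 772 and 622 CPM in Control replicates 1, 2 and 3. It was at 390, 377 and 293 CPM in the IDPN-3wk replicates and at 362, 323 and 367 CPM in the IDPN-7wk replicates. Every exposed library was below every control, and the IDPN-3wk and IDPN-7wk libraries overlapped. Its mean went from 703 ± 75.6 CPM (SD, n = 3) in controls to 353 ± 52.5 CPM at 3 weeks, a decrease of 0.99 on the log2 scale (log2 fold change -0.99, SE 0.12, 95% interval -1.27 to -0.71; edgeR's quasi-likelihood test, adjusted p = 0.00459; lower in 3 of 3 exposed libraries). At 7 weeks the mean was 351 ± 23.8 CPM, a decrease of 1.00 on the log2 scale (SE 0.12, 95% interval of the log2 fold change -1.28 to -0.73, adjusted p = 0.00137), with again 3 of 3 libraries lower. Between the exposed groups Otof differed by -0.01 on the log2 scale (95% interval -0.29 to 0.26, adjusted p = 0.983), so the decrease present after 3 weeks had about the same size after 7 weeks. At 3 weeks the difference in mean log2(CPM + 2) was -0.70 within the set with fewer detected genes and -1.34 within the other set. That other set includes every IDPN-7wk library, and there the 7-week difference was -1.08.

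Slc17a8 (ENSRNOG00000007581) encodes VGLUT3, the transporter that loads HC synaptic vesicles with glutamate. Its level was 69.5, 63.4 and 68.4 CPM in controls, 14.5, 43.7 and 15.3 CPM in IDPN-3wk and 14.2, 9.70 and 16.8 CPM in IDPN-7wk. The 3 controls lay close together, the IDPN-7wk libraries were all far below them, and among the IDPN-3wk libraries replicate 2 stood between the controls and the rest. The means were 67.1 ± 3.23, 24.5 ± 16.6 and 13.6 ± 3.60 CPM (SD, n = 3). At 7 weeks Slc17a8 was downregulated, with a log2 fold change of -2.31 (SE 0.40, 95% interval -3.20 to -1.41, adjusted p = 0.00840; lower in 3 of 3 libraries), the largest decrease among the 9 genes. After 3 weeks the log2 fold change was -1.46 (SE 0.39, 95% interval -2.33 to -0.58) and the adjusted p was 0.101, so that Slc17a8 was not a DEG although 3 of 3 libraries were below the controls. Leaving out IDPN-3wk replicate 2 changed this: without it the log2 fold change was -2.17 and the adjusted p 0.00460. The gene was also called at 3 weeks by DESeq2 (log2 fold change -1.45, adjusted p = 0.00444), while over all 17 alternatives the adjusted p ran from 0.00444 to 0.236. Without the 3 libraries with fewer detected genes, an alternative chosen after the data were seen, the log2 fold change was -2.12. In that fit IDPN-3wk replicate 3 stands alone in its group. Between 7 and 3 weeks the log2 difference was -0.85 (95% interval -1.72 to 0.02, adjusted p = 0.373). It was -0.13 without IDPN-3wk replicate 2 (adjusted p = 0.845). Without the 3 libraries with fewer detected genes, where IDPN-3wk replicate 3 stands alone, it was -0.18.

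Cacna1d (ENSRNOG00000013147) encodes CaV1.3, the pore of the calcium channels at the ribbon. Controls had 103, 130 and 87.5 CPM, IDPN-3wk libraries 42.5, 37.7 and 36.2 CPM, and IDPN-7wk libraries 45.99, 53.5 and 60.2 CPM. Here the groups were all separate: every exposed library was below every control, and every IDPN-7wk library was above every IDPN-3wk library. The means were 107 ± 21.3, 38.8 ± 3.32 and 53.2 ± 7.11 CPM (SD, n = 3). Cacna1d fell by 1.46 on the log2 scale at 3 weeks (SE 0.16, 95% interval -1.83 to -1.09, adjusted p = 0.00251) and by 1.00 at 7 weeks (SE 0.16, 95% interval -1.36 to -0.64, adjusted p = 0.00574), with 3 of 3 libraries lower each time. The direct comparison of the exposed groups gave a log2 difference of 0.46 in favour of IDPN-7wk (SE 0.16, 95% interval 0.09 to 0.82), with an unadjusted p of 0.0183 and an adjusted p of 0.256, which does not pass the correction. Within the set with fewer detected genes the 3-week difference in mean log2(CPM + 2) was -1.09, and within the other set it was -1.62.

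Cacnb2 (ENSRNOG00000018378), the gene of the beta subunit that brings CaV1.3 to the membrane, had 8.14, 5.26 and 7.29 CPM in controls, 4.09, 6.97 and 4.21 CPM in IDPN-3wk and 5.97, 6.44 and 6.41 CPM in IDPN-7wk. The groups overlapped, and neither log2 fold change passed the test (-0.44 at 3 weeks, adjusted p = 0.547; -0.14 at 7 weeks, adjusted p = 0.883). The interval at 3 weeks, -1.14 to 0.26, does not exclude a decrease as large as that of Otof.

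Cabp2 (ENSRNOG00000018339), whose calcium-binding product slows the inactivation of CaV1.3, was at 214, 244 and 219 CPM in controls, 171, 190 and 147 CPM in IDPN-3wk, and 149, 129 and 147 in the libraries of IDPN-7wk. All exposed libraries were below all controls, and the exposed groups overlapped in that IDPN-3wk replicate 3 lay within the IDPN-7wk range. The means were 226 ± 16.3, 169 ± 21.7 and 142 ± 10.9 CPM (SD, n = 3). At 7 weeks Cabp2 was downregulated by a smaller factor than Otof, Slc17a8 and Cacna1d, with a log2 fold change of -0.67 (SE 0.11, 95% interval -0.92 to -0.42, adjusted p = 0.00709; lower in 3 of 3 libraries). At 3 weeks the log2 fold change of -0.41 (SE 0.11, 95% interval -0.67 to -0.16, adjusted p = 0.106) was not past the threshold. The log2 difference between the exposed groups was -0.26, with an unadjusted p of 0.0449 and an adjusted p of 0.351.

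**Figure D2:**
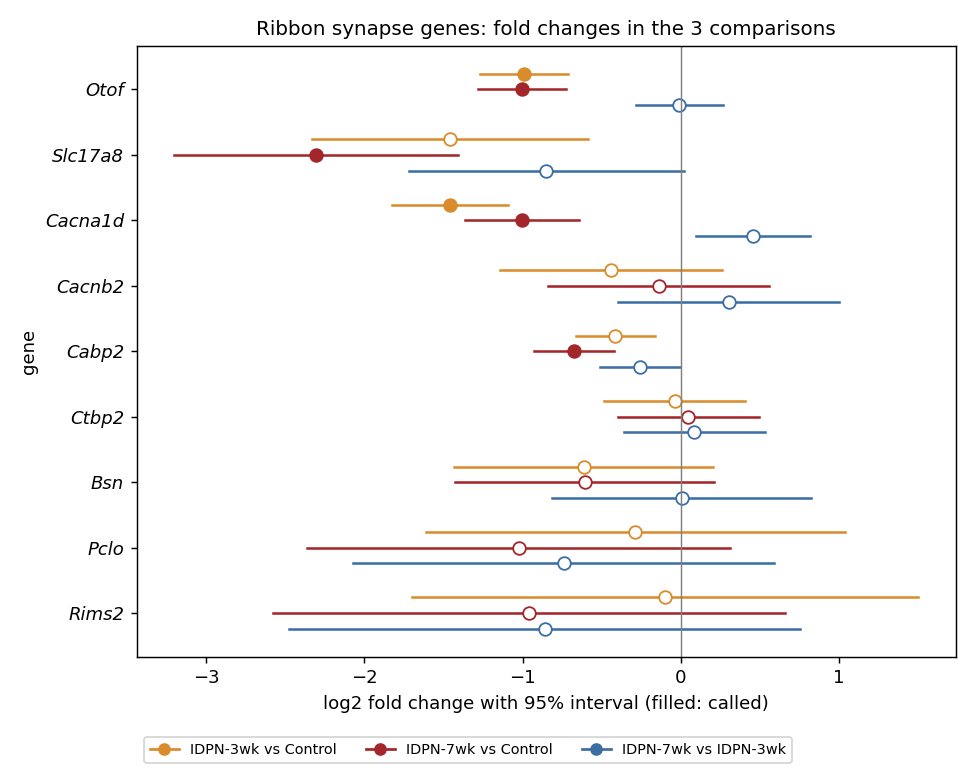
Log2 fold change of each ribbon synapse gene (horizontal axis) in the 3 comparisons, with the 95% interval of the edgeR fit as a line; filled points mark DEGs. Otof and Cacna1d are DEGs at both times, Slc17a8 and Cabp2 at 7 weeks, and the intervals of Ctbp2 reach no further than -0.48 and 0.53.

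Ctbp2 (ENSRNOG00000017326) gives rise to RIBEYE, the main structural protein of the ribbon, and from another promoter to the transcriptional corepressor CTBP2, which many cell types express. Gene counts cannot separate these products. Levels were 37.7, 46.8 and 28.6 CPM in controls, 42.2, 37.7 and 30.2 CPM in IDPN-3wk and 34.1, 40.8 and 41.9 CPM in IDPN-7wk. All groups overlapped, and the log2 fold change was -0.04 at 3 weeks (95% interval -0.48 to 0.41, adjusted p = 0.960) and 0.05 at 7 weeks (95% interval -0.40 to 0.49, adjusted p = 0.945). Both intervals end short of the decreases of 0.99 and 1.00 measured for Otof. The sign of these values was not stable: without the 3 libraries with fewer detected genes the 7-week value was -0.12. Within the fewer-detected and the other set the 3-week differences in mean log2(CPM + 2) were 0.46 and -0.45. Each of these has a single library in a group (Control replicate 3 or IDPN-3wk replicate 3), so the set and that library cannot be told apart.

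The scaffold genes of the active zone, Bsn (bassoon), Pclo (piccolo) and Rims2 (a RIM protein that tethers calcium channels and vesicles), varied between libraries of the same group. Bsn (ENSRNOG00000030714) was at 14.3, 18.1 and 5.82 CPM in controls, 9.57, 7.47 and 7.90 CPM in IDPN-3wk and 7.60, 9.85 and 7.60 CPM in IDPN-7wk. Pclo (ENSRNOG00000005726) was at 9.92, 11.1 and 5.12 CPM in controls, 14.7, 2.36 and 4.40 CPM in IDPN-3wk and 3.28, 5.39 and 4.18 CPM in IDPN-7wk. Rims2 (ENSRNOG00000004201) was at 8.55, 7.83 and 0.647 CPM in controls, 7.44, 4.85 and 3.60 CPM in IDPN-3wk and 2.26, 3.04 and 3.44 CPM in IDPN-7wk. In each of the 3 genes Control replicate 3, a library with fewer detected genes, was the lowest control, and in Bsn and Rims2 it was below every exposed library. None of them passed the test at 3 weeks, with log2 fold changes of -0.61 for Bsn (adjusted p = 0.457), -0.29 for Pclo (adjusted p = 0.868) and -0.10 for Rims2 (adjusted p = 0.972). None passed at 7 weeks either, with -0.61 for Bsn (adjusted p = 0.427), -1.03 for Pclo (adjusted p = 0.408) and -0.96 for Rims2 (adjusted p = 0.548). The 95% interval of Rims2 at 7 weeks ran from -2.58 to 0.66, so a decrease like that of Slc17a8 was neither shown nor excluded for it. Without the 3 libraries with fewer detected genes, an alternative chosen after these values were seen, all 3 were DEGs at 7 weeks: Bsn with a log2 fold change of -0.96 (adjusted p = 0.0185), Pclo with -1.30 (adjusted p = 0.0135) and Rims2 with -1.50 (adjusted p = 0.00834). Over all 17 alternatives the adjusted p at 7 weeks reached 0.803 for Bsn, 0.732 for Pclo and 0.829 for Rims2. Leaving out Control replicate 3 alone gave -0.95 (adjusted p = 0.0684), -1.30 (adjusted p = 0.378) and -1.49 (adjusted p = 0.0726). At 3 weeks the fewer-detected and the other set gave differences in mean log2(CPM + 2) of opposite sign, 0.42 and -0.87 for Bsn, 0.26 and -0.97 for Pclo, and 1.60 and -0.86 for Rims2. The fewer-detected set has Control replicate 3 as its only control, and the other set has IDPN-3wk replicate 3 as its only 3-week library. The set and that library thus cannot be told apart here. Among the exposed groups the Rims2 libraries did not overlap, with IDPN-7wk lower, and with Cacna1d this made 2 of 9 genes without overlap in either direction, against 21.0% of all genes tested.

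To set the members beside HC markers, each was divided by Myo7a and by Pou4f3 in the same library. These 54 comparisons of ratios were chosen after the values were seen, and with 3 libraries against 3 the exact two-sided permutation test cannot give a p under 0.1. Both references had smaller decreases than the median HC marker at both times. The ratios below therefore hold for these references only. The ratio of Otof to Myo7a was 4.30, 3.99 and 3.57 in controls, 2.68, 2.67 and 2.41 in IDPN-3wk and 2.27, 2.42 and 2.77 in IDPN-7wk. No exposed library reached a control, and the mean log2 ratio differed by -0.61 at 3 weeks and -0.67 at 7 weeks (exact p = 0.1 each). For Slc17a8 the ratio to Myo7a was 0.418, 0.328 and 0.393 in controls, 0.0995, 0.309 and 0.126 in IDPN-3wk and 0.0889, 0.0725 and 0.127 in IDPN-7wk, which differed from controls by -1.27 and -2.01 on the log2 scale without overlap (exact p = 0.1 each). For Cacna1d it was 0.619, 0.670 and 0.503 in controls, 0.292, 0.267 and 0.297 in IDPN-3wk and 0.288, 0.400 and 0.456 in IDPN-7wk, a difference of -1.06 and -0.66 without overlap (exact p = 0.1 each).

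Cabp2 gave another picture. Its ratio to Myo7a was 1.29, 1.26 and 1.26 in controls, 1.18, 1.35 and 1.21 in IDPN-3wk and 0.932, 0.964 and 1.11 in IDPN-7wk, so that the IDPN-3wk libraries overlapped the controls (log2 difference -0.03, exact p = 0.7) and the IDPN-7wk libraries did not (-0.34, exact p = 0.1). The ratio of Ctbp2 to Myo7a was 0.227, 0.242 and 0.164 in controls, 0.290, 0.267 and 0.248 in IDPN-3wk and 0.214, 0.305 and 0.317 in IDPN-7wk. It was above all controls in the 3 IDPN-3wk libraries (log2 difference 0.36, exact p = 0.1) and overlapped them at 7 weeks (0.40, exact p = 0.3). The choice of reference mattered at 7 weeks: relative to Pou4f3, Slc17a8 was without overlap (-1.71, exact p = 0.1), whereas Otof (-0.37, exact p = 0.3), Cacna1d (-0.36, exact p = 0.3) and Cabp2 (-0.04, exact p = 0.6) overlapped the controls. At 3 weeks the differences relative to Pou4f3 were -0.65 for Otof, -1.30 for Slc17a8 and -1.09 for Cacna1d, all without overlap (exact p = 0.1 each), and -0.07 for Cabp2 with overlap (exact p = 1). Relative to Pou4f3, Ctbp2 overlapped the controls at 3 weeks (0.33, exact p = 0.3) and at 7 weeks (0.70, exact p = 0.2). The ratios of Cacnb2, Bsn, Pclo and Rims2 to either reference overlapped the controls at both times.

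**Figure D3:**
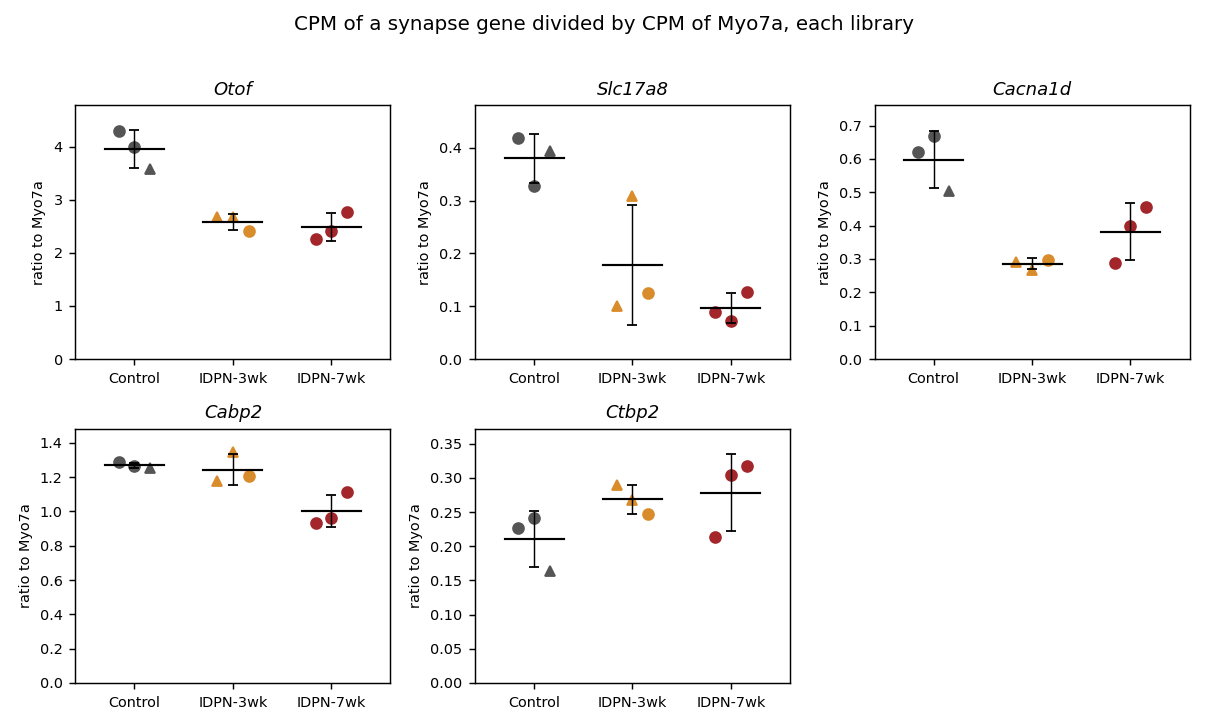
CPM of 5 ribbon synapse genes divided by the CPM of Myo7a in the same library, with 1 point per library (triangles mark the 3 libraries with fewer detected genes), a line at the mean and bars for the SD of 3. Otof, Slc17a8 and Cacna1d lie below the controls at both times, Cabp2 at 7 weeks, and Ctbp2 lies above them at 3 weeks.

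The genes whose pattern was nearest to the members called at both times were sought among all genes tested, by the root mean square difference over the 9 libraries of log2(CPM + 2) relative to the mean of the controls. For Otof they were Lrba (0.115), Nckap5 (0.120) and AABR07001519.1 (0.149), against a median over all genes of 0.864. For Cacna1d they were Mpp4 (0.171), Lrrc6 (0.198) and LOC102551901 (0.219), against a median of 1.03. Lrba had means of 124, 69.6 and 61.6 CPM in the controls, IDPN-3wk and IDPN-7wk, and Mpp4 had 8.43, 2.22 and 3.53 CPM. AABR07001519.1 had 2.93, 0.731 and 0.277 CPM, with log2 fold changes of -1.99 and -3.39 at 3 and 7 weeks, larger decreases than those of Otof. LOC102551901 had 4.63, 0.955 and 1.37 CPM, with -2.27 and -1.75, and was not a DEG at either time. The exposed means of both genes lay below the pseudocount of 2, which shrinks their differences in log2(CPM + 2). The choice depended on the pseudocount: with 0.5 in place of 2, the list for Otof kept Lrba and the list for Cacna1d kept none of its genes.

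Other proteins of the presynaptic side were followed with a list of 46 genes, of which 45 were found by symbol (Sv2b was not) and 41 were tested. Rims4, Ppfia2, Slc17a6 and Slc17a7 had too few counts, and the highest single values were 1.38, 0.219, 1.35 and 0.405 CPM. At 3 weeks 2 of 41 were DEGs, both lower, and at 7 weeks 6 of 41, of which 5 were lower and 1 higher, against 1.65% and 5.13% of all genes tested, with medians of -0.11 and -0.39 on the log2 scale. Between 7 and 3 weeks edgeR called 0 of 41 (4 had an unadjusted p under 0.05, and DESeq2 called 0), with a median of -0.02. The 3-week count depended on single libraries and on the tool: it was 1 without Control replicate 1 or 2, 5 without IDPN-3wk replicate 3, and 9 by DESeq2, which called 741 of all 15517 genes. At 7 weeks it was 3 without Control replicate 1 or 3 or IDPN-7wk replicate 2 or 3, and 2 without IDPN-7wk replicate 1, and without the 3 libraries with fewer detected genes it was 8. By role, the calls at 7 weeks fell on 1 of 9 calcium channel partners, 1 of 12 active zone genes, 3 of 8 vesicle genes and 1 of 12 genes of vesicle recycling and otoferlin handling.

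Tspoap1, which encodes the RIM-binding protein RIMBP1, was at 34.8, 44.3 and 30.5 CPM in controls, 9.84, 7.74 and 8.27 CPM in IDPN-3wk and 8.09, 14.1 and 11.3 CPM in IDPN-7wk. It was downregulated at both times, with log2 fold changes of -2.08 (SE 0.25, adjusted p = 0.00321) and -1.71 (SE 0.24, adjusted p = 0.00298) and 3 of 3 libraries lower each time. Dnm1, the gene of dynamin 1, which cuts endocytic vesicles from the membrane, also fell at both times, from 11.1, 13.8 and 11.6 CPM in controls to 3.76, 1.85 and 3.66 CPM (log2 fold change -1.97, adjusted p = 0.0163) and to 3.79, 4.75 and 4.33 CPM (-1.50, adjusted p = 0.0222). Its 3-week call was lost without Control replicate 1 (adjusted p = 0.0651) or 2 (0.0823) or in a fit to the compared groups alone (0.0663), and its 7-week call without any single one of the Control or IDPN-7wk libraries (adjusted p from 0.0519 to 0.106). Cacna2d1, the gene of an auxiliary calcium channel subunit, fell from 84.7, 64.6 and 120 CPM to 20.0, 37.4 and 20.9 CPM at 7 weeks (log2 fold change -1.78, adjusted p = 0.0159), a call lost without Control replicate 3 (0.0564), IDPN-7wk replicate 1 (0.0791) or IDPN-7wk replicate 3 (0.0768). Syp, the gene of the vesicle protein synaptophysin, fell from 17.9, 16.6 and 12.4 CPM to 9.45, 7.81 and 7.37 CPM at 7 weeks (log2 fold change -0.93, adjusted p = 0.0310), which was lost without Control replicate 1 (0.129) or 2 (0.110) or any IDPN-7wk library (0.0629, 0.123 and 0.137). Rab3a, a small GTPase of vesicles, fell from 54.6, 42.6 and 62.1 CPM to 33.3, 32.4 and 38.8 CPM at 7 weeks (-0.61 on the log2 scale, adjusted p = 0.0454), and this call was lost without Control replicate 1 (0.137) or 3 (0.136), IDPN-3wk replicate 2 (0.0510) or 3 (0.0611) or any IDPN-7wk library (0.169, 0.162 and 0.0826), with upper-quartile scaling (0.0519), with the covariate for the fewer-detected set (0.0856) and without that set (-0.48, adjusted p = 0.0587).

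Rab3b, a GTPase of the same family, was the only DEG of the list that was higher in edgeR's fit to all libraries. At 3 weeks DESeq2 also called Rab3b, Cacnb3 and Rims3, which were higher, with edgeR log2 fold changes of 1.84, 0.74 and 1.72. It called Cacna2d1, Cacna2d3, Erc2 and Dnm3 too, whose IDPN-3wk means were below the control means. Without IDPN-3wk replicate 3, edgeR called Cacnb3 and Rims3 as well, and Ppfia4, whose IDPN-3wk mean was below the control mean. Rab3b was at 1.35, 2.51 and 0.591 CPM in controls, 6.79, 3.37 and 5.72 CPM in IDPN-3wk and 11.1, 9.97 and 11.9 CPM in IDPN-7wk, with no overlap between any of the groups. At 7 weeks its log2 fold change was 2.89 (SE 0.51, 95% interval 1.77 to 4.02, adjusted p = 0.00840; higher in 3 of 3 libraries), and it was a DEG under all 17 alternatives. Myo6, whose myosin binds otoferlin, had adjusted p values under the threshold but fold changes that were too small, with -0.55 at 3 weeks (adjusted p = 0.0208) and -0.48 at 7 weeks (adjusted p = 0.0163). The same held for Rab3d at 7 weeks, which was higher than in controls in 3 of 3 libraries (log2 fold change 0.56, adjusted p = 0.0347) and was a DEG with upper-quartile scaling and without IDPN-7wk replicate 3.

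**Figure D4:**
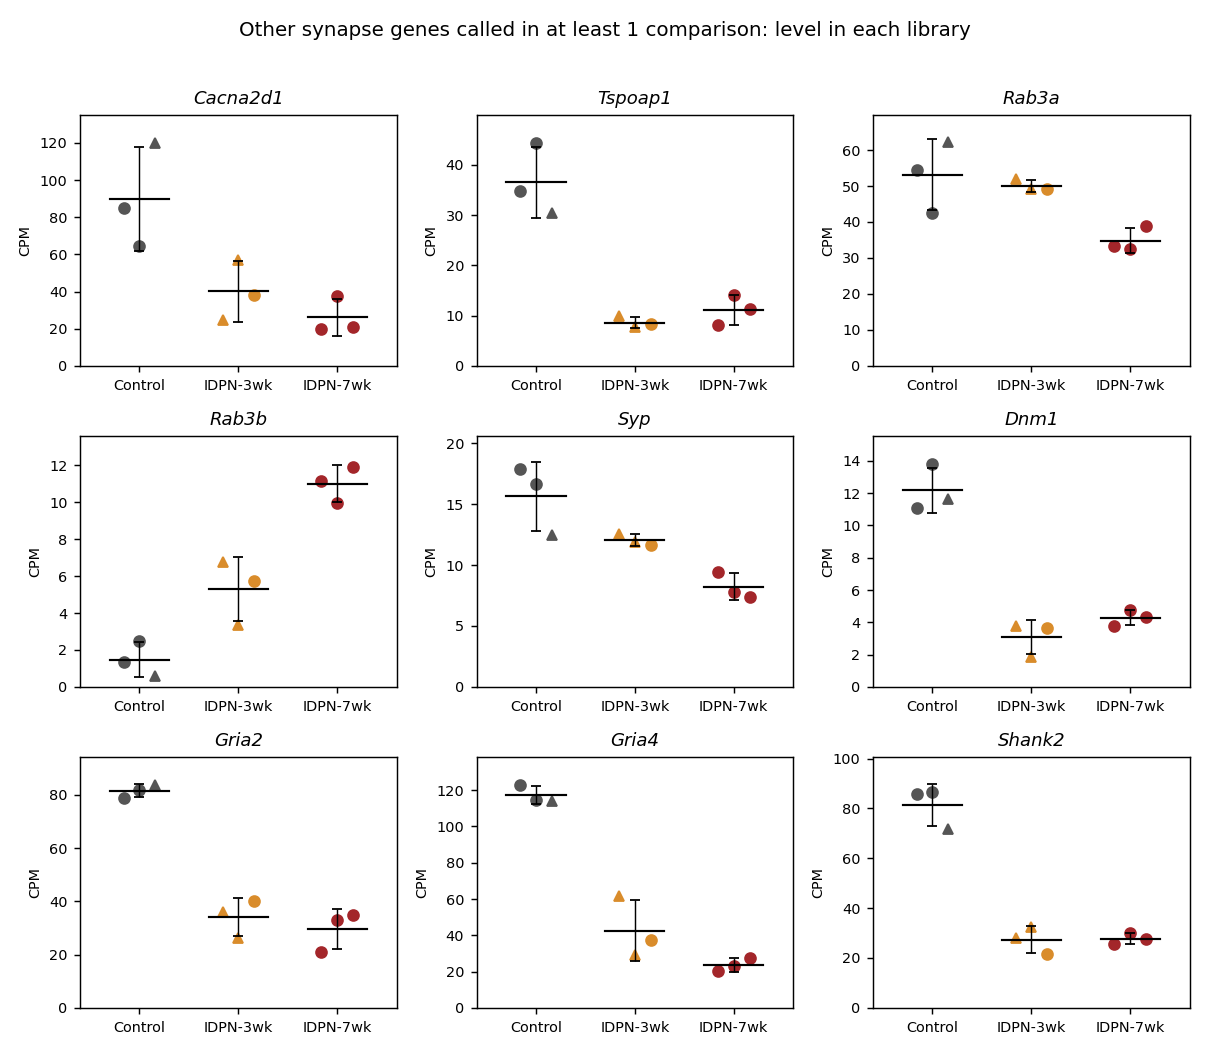
Level in CPM, per library, of the other synapse genes that were DEGs in at least 1 comparison (triangles mark the 3 libraries with fewer detected genes; line and bars are the mean and SD of 3). Cacna2d1, Tspoap1, Dnm1, Gria2, Gria4 and Shank2 lie lower in all IDPN libraries, Rab3b lies higher, and the 3-week libraries of Rab3a and Syp overlap the controls.

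The apposed side was followed with 14 genes, all of them tested. Of these, 11 belong to the afferent postsynaptic side of these synapses and 3 to the efferent synapse on HCs. At both times 3 of 14 were DEGs, all lower, while 1.21% and 3.13% of all genes tested were downregulated at 3 and 7 weeks. The medians of the 14 genes were -0.61 and -0.75 on the log2 scale. For the 11 afferent genes they were -0.66 and -1.03, and all 3 DEGs were among these 11. Without Control replicate 1 or 2 the 3-week count was 1. Gria2 and Gria4 encode AMPA receptor subunits, and Shank2 a scaffold of postsynaptic densities; none of these is expressed by a single cell type alone, and the cells behind their counts cannot be named in bulk tissue. Shank2 was at 85.8, 86.6 and 71.8 CPM in controls, 28.1, 32.3 and 21.7 CPM in IDPN-3wk and 25.6, 30.2 and 27.6 CPM in IDPN-7wk, a log2 fold change of -1.57 at 3 weeks (adjusted p = 0.00196) and -1.55 later (adjusted p = 0.000621), with 3 of 3 libraries lower each time. Gria4 was at 123, 115 and 114 CPM in controls, 61.5, 29.0 and 37.2 CPM in IDPN-3wk and 20.1, 23.3 and 27.3 CPM in IDPN-7wk. Its log2 fold change was -1.46 at 3 weeks (adjusted p = 0.0162) and -2.31 at 7 weeks (adjusted p = 0.000621), and the 3-week call was lost without Control replicate 1 (adjusted p = 0.0701) or 2 (0.0643) and in a fit to the libraries of these groups alone (0.0553). Gria2 went from 79.0, 82.0 and 83.8 CPM in controls to 35.9, 26.1 and 40.2 CPM (log2 fold change -1.26, adjusted p = 0.0175) and 20.9, 33.1 and 34.8 CPM (-1.46, adjusted p = 0.00339). Its 3-week call was lost without Control replicate 1 (-1.28, adjusted p = 0.0657), 2 (-1.26, 0.0718) or 3 (-1.24, 0.0534). Without the 3 libraries with fewer detected genes, where IDPN-3wk replicate 3 stands alone, the decrease was 1.00 on the log2 scale. Between 7 and 3 weeks edgeR called 0 of 14 with a median of -0.18; 4 had an unadjusted p under 0.05, and DESeq2 called 3, Gria4, Homer2 and Kcnn2.

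The efferent synapse, where cholinergic fibres contact HCs, was represented by Chrna9, Chrna10 and Kcnn2, and 0 of 3 were DEGs by edgeR (1 had an unadjusted p under 0.05 at 3 weeks and 0 at 7 weeks), while DESeq2 called Kcnn2 at 3 weeks. Chrna10 was at 181, 294 and 257 CPM in controls, 157, 210 and 192 CPM in IDPN-3wk, and 218, 249 and 180 in the libraries of IDPN-7wk, with overlap at both times. Chrna9 was at 55.5, 57.4 and 36.9 CPM in controls, 58.1, 62.6 and 64.3 CPM in IDPN-3wk and 48.6, 48.7 and 48.0 CPM in IDPN-7wk. Kcnn2 was near the floor, at 0.782, 0.595 and 0.478 CPM in controls, 0 in all 3 IDPN-3wk libraries and 0.143, 0.493 and 0.405 CPM in IDPN-7wk. Against the mean floor of the IDPN-3wk libraries it was at least 6.75-fold lower there than in controls, with an adjusted p of 0.0606, and with the gene set at that bound the median of the 14 genes was again -0.61.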

How the data were processed

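The authors deposited 1 table of estimated counts (expected counts) per gene, which they made from reads of the rat genome build Rnor6.0 with STAR 2.5.3a and RSEM 1.3.0, per the submitters' processing notes (the study's methods give the same build and another RSEM version); reads matching more than 1 gene are shared out among those genes by RSEM. The study's methods give default parameters for RSEM and do not name a strand setting, so overlapping and antisense genes are uncertain. Counts were rounded to whole numbers. With R 4.3.3 and edgeR 4.0.16, genes were kept by filterByExpr (15517 of 32883), scaled by TMM and tested by the robust quasi-likelihood test in a single fit to all 9 libraries, 1 mean for each group (residual degrees of freedom 6, prior 4.07 at the median). The Benjamini-Hochberg adjustment covered all genes of a comparison. DEGs were genes whose adjusted p was under 0.05 and whose fold change exceeded 1.5. The SE is the absolute log2 fold change divided by the square root of the F statistic. P-values of this test set the group difference against the spread between libraries of a group, estimated over all 9 libraries and moderated across genes.

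The members and the lists (other presynaptic genes, genes of the apposed side, HC markers and markers of supporting, dark and transitional and endothelial cells, neurons, macrophages, mesenchyme, erythroid cells and melanocytes) were chosen with earlier results of these data known, and no list was tested as a set. A further list of markers is not reported here. Named are the 9 members, those of the other synapse genes called in at least 1 comparison or by DESeq2 between 7 and 3 weeks, those with an adjusted p under the threshold but too small a fold change, those of the efferent synapse, listed genes that were missing or untested where 5 or fewer, and the 3 nearest genes of each member called at both times. Some other synapse genes called only under an alternative are named beside that alternative.

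Alternatives were DESeq2 1.42.0, relative log expression (RLE) or upper-quartile scaling, no filter, a filter of 10 counts in each library, a fit to just the compared groups, a fold change threshold of 2 or none, a covariate for the fewer-detected set, and each library left out. Leaving out the 3 libraries with fewer detected genes, the tests of ratios and the pseudocount of 0.5 for the nearest genes were added after the data were seen. The scripts were tested on simulated data.

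The labels give all libraries the same batch. The titles hold a code of unknown meaning that is the same in all controls and differs from the codes of the exposed rats, so this code and the exposure cannot be told apart. Among the exposed rats 1 code occurs once in each group. Replicate numbers were assigned here. Promoter windows came from a RefSeq table of build GRCr8, matched by symbol. Other experiments of the study were not analysed here.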

Additional observations from a re-analysis of the deposited data

Results flagged for a closer look

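Among the markers followed beside the synapse genes, 2 differed between 7 and 3 weeks of exposure in the direct test of edgeR. Spp1, a marker of type I HCs, was lower by 1.00 on the log2 scale at 7 weeks (SE 0.11, adjusted p = 0.00326), with all 3 IDPN-7wk libraries below all 3 IDPN-3wk libraries. With single libraries left out the adjusted p ran from 0.00495 to 0.0263. Without the 3 libraries with fewer detected genes, where IDPN-3wk replicate 3 stands alone, the log2 difference was -0.82. Gjb6, a connexin of supporting cells, had a log2 difference of -0.69 (SE 0.12, adjusted p = 0.0426) with 3 of 3 libraries lower. This call was lost under 9 of 17 alternatives, with adjusted p values of up to 0.253. Among them were those without Control replicate 1, IDPN-3wk replicate 1 or 2, or any IDPN-7wk library. Without the 3 libraries with fewer detected genes, where IDPN-3wk replicate 3 stands alone, the call was lost too (-0.76). No member of the ribbon synapse list met this test.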

How the results depend on the processing

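Under the 17 alternatives of fit, filter, scaling and libraries, the calls of Otof and Cacna1d at both times and of Slc17a8 and Cabp2 at 7 weeks were kept. These alternatives include the fit in which IDPN-3wk replicate 3 stands alone. Of 459 values of the members' log2 fold changes, 429 kept their call and sign, 6 became DEGs and 24 changed sign. With a fold change threshold of 2, 1 member was called at 3 weeks (without Otof) and 3 at 7 weeks (without Cabp2). Without the 3 libraries with fewer detected genes, an alternative chosen after the data were seen, 7 members were called at 7 weeks, as were 1563 of 16350 genes tested. Leaving out single libraries gave 2 to 3, 4 to 4 and 0 to 0 called members in the 3 comparisons. Other presynaptic genes called at 3 weeks numbered 9 by DESeq2, 1 with only the libraries compared and 1 to 5 with single libraries left out (2 to 6 at 7 weeks), and without the fewer-detected set 8 were called at 7 weeks, with Cacnb1, Ppfia4 and Dnm3 but not Rab3a. Called genes of the apposed side numbered 1 to 4 at 3 weeks with single libraries left out, 4 at 7 weeks without the fewer-detected set (with Gria3), and between 7 and 3 weeks 3 by DESeq2 and 0 to 1 with single libraries left out. Signs changed as follows. Otof between 7 and 3 weeks turned to 0.0164 (upper-quartile scaling), 0.0357 (covariate for the fewer-detected set) and 0.25 (without that set), and single libraries left out gave -0.13 to 0.0673. For Ctbp2 the value was -0.12 at 7 weeks without the fewer-detected set, and leaving out single libraries gave -0.20 to 0.15 at 3 weeks, -0.12 to 0.23 at 7 weeks and -0.0371 to 0.20 between them. Bsn between 7 and 3 weeks turned to -0.000625 (DESeq2), -0.000622 (RLE scaling) and -0.49 (covariate), and single libraries left out gave -0.13 to 0.12. Pclo ranged from -1.37 to 0.13 at 3 weeks and from -1.15 to 0.34 between 7 and 3 weeks with single libraries left out. Rims2 at 3 weeks was 0.95 with the covariate and -0.63 to 0.32 with single libraries left out. For all these changes the cause was not tested. No paired analysis was possible because the labels pair no animals: the codes in the titles have no stated meaning, no control shares one with an exposed rat, and just 1 code occurs in both exposed groups. The replicate numbers, given here, follow only the order of the samples.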

Other observations

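Markers of other cell types moved in the same libraries as the ribbon synapse genes, and their part in those values was not tested. Beside the counts that follow, 1.65% of all genes tested were DEGs at 3 weeks and 5.13% at 7 weeks. The 6 supporting cell markers, with Otog at the highest CPM, summed to 13972, 13569 and 14257 CPM in controls, 8481, 10370 and 8366 CPM in IDPN-3wk and 6156, 8169 and 7498 CPM in IDPN-7wk. Otog alone had means of 8473, 4674 and 3533 CPM in these groups. The median log2 fold change of the 6 was -0.32 at 3 weeks and -0.39 at 7 weeks. At 7 weeks 2 of 6 were DEGs, Otog (log2 fold change -1.26, adjusted p = 0.00679) and Gjb6 (-1.03, adjusted p = 0.000980), both lower in 3 of 3 libraries. The 7 neuron markers, with Nefl at the highest CPM, summed to 112, 129 and 111 CPM in controls, 70.3, 81.5 and 75.4 CPM in IDPN-3wk and 81.5, 64.5 and 81.3 CPM in IDPN-7wk. They did not move together: 4 were lower and 3 higher at 3 weeks, and 6 lower and 1 higher at 7 weeks. The median was -0.20 on the log2 scale at both times. Among the 7, Snap25 was the only DEG, with means of 38.6, 12.9 and 10.7 CPM in controls, IDPN-3wk and IDPN-7wk. It was lower at 3 weeks (-1.58, adjusted p = 0.0147) and at 7 weeks (-1.85, adjusted p = 0.00260). Its 3-week call was lost without Control replicate 2 (0.0643) and in a fit to the compared groups alone (0.0592). The 6 macrophage markers, with Csf1r at the highest CPM, summed to 80.5, 51.7 and 94.5 CPM in controls, 40.9, 114 and 39.8 CPM in IDPN-3wk and 203, 166 and 159 CPM in IDPN-7wk, where 1 of 6, C1qb, was a higher DEG (1.70, adjusted p = 0.00958). None of these markers was at 0 in a group. Which single markers to name was decided with their values in view.

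The 4 markers of dark and transitional cells, with Slc12a2 at the highest CPM, summed to 1258 ± 161, 893 ± 50.8 and 686 ± 171 CPM (mean ± SD, n = 3) in controls, IDPN-3wk and IDPN-7wk, and 2 of 4 were lower DEGs at 7 weeks, Slc12a2 and Kcnq1, the latter not without Control replicate 1 or 3 or IDPN-7wk replicate 1 or 3 (adjusted p up to 0.106) and not without the 3 libraries with fewer detected genes (0.0624). Mesenchyme markers (4 genes, with Dcn at the highest CPM) summed to 260 ± 25.0, 336 ± 70.6 and 255 ± 52.9 CPM, with 1 of 4, Lum, a lower DEG at 7 weeks, which was lost without Control replicate 3 or any IDPN-7wk library (adjusted p up to 0.0700). Endothelium markers (3 of 4 found by symbol, with Kdr at the highest CPM) summed to 152 ± 6.33, 180 ± 19.5 and 182 ± 34.7 CPM, with 1 of 3, Cdh5, a higher DEG at 7 weeks, which was lost without any single library but IDPN-3wk replicate 1 (adjusted p up to 0.185) and, for its fold change, without the 3 libraries with fewer detected genes (0.55 on the log2 scale). The erythroid markers found by symbol (2 of 4, with Hbb at the highest CPM) summed to 76.5 ± 6.89, 115 ± 11.9 and 70.8 ± 17.2 CPM, and the melanocyte markers (2 of 3, with Mlana at the highest CPM) to 8.17 ± 1.49, 8.63 ± 3.49 and 8.73 ± 0.50 CPM.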
